A study of Mus musculus with 222 samples.

Results

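The 10 genes of the Nodal branch of TGF-beta signalling described here were followed in mouse primordial germ cells (PGCs), which later form eggs or sperm. They were named by their place in the pathway: the ligand Nodal, its inhibitors Lefty1 and Lefty2, the co-receptor Tdgf1, the receptors Acvr2a, Acvr2b and Acvr1b, the signal transducers Smad2 and Smad3, and the transcription factor Foxh1. All 10 were found among the 24391 gene symbols of the count tables. The series compares Control PGCs with ECKO PGCs, in which Eed is deleted. The EED protein belongs to the core of Polycomb repressive complex 2, the enzyme complex behind trimethylation of lysine 27 of histone H3, and the title of the series names a need for it while PGCs differentiate in the gonad. Expression was measured in 22 bulk libraries and in 192 single cells.

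Nodal is a secreted ligand that binds a complex of a type II Activin receptor (Acvr2a or Acvr2b), the type I receptor Acvr1b and the co-receptor Tdgf1, also called Cripto. The activated receptor phosphorylates Smad2 and Smad3, which enter the nucleus and, with Foxh1, switch on targets that include Nodal itself and its own inhibitors Lefty1 and Lefty2. In the fetal testis this pathway is known to be active for a short time in XY germ cells around the onset of sex differentiation, and Cripto is known as a regulator of male germ cell pluripotency.

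The labels give every sample the C57BL/6;129S1/SvlmJ strain and describe a cross of OG; Eed fl/fl females, whose Oct4-GFP reporter labels germ cells, with BC; Eed fl/+ males, which bring Blimp1-Cre, a driver active from the founding of the PGC lineage. Controls are labelled wild type and ECKO samples Eed -/-, and every embryo of the cross inherits a floxed Eed allele from its mother. Which Controls carried Cre was not given in the labels. The cross is described for E10.5, E11.5 and E13.5 but not by name for E12.5, and the E12.5 protocol names only female gonads, although cells of both sexes are labelled. PGCs were sorted from dissociated gonads by GFP. In bulk there were 3 Control and 4 ECKO libraries of E11.5 XX, 4 and 4 of E11.5 XY, and 4 and 3 of E13.5 XY. The single cells came from 8 E12.5 embryos (2 XX Control, 2 XX ECKO, 2 XY Control, 2 XY ECKO), 24 cells an embryo. The embryos are lettered A and B within a group here, because the embryo numbers in the sample titles are not tied to the embryo names in the table columns. In those column names XX Control A and XX ECKO A share the number before the point, and what it stands for was not given. Nothing in the labels ties a bulk library to a separate embryo or litter, so p-values measure the spread between libraries, which may in part be technical.

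Depth was uneven, and some libraries stood apart. Total counts ran from 415291 to 7559310 in the E11.5 XX libraries, from 8607927 to 14974853 in E11.5 XY and from 4903492 to 12425911 in E13.5 XY. Of the single cells, 127 of 192 had at least 50000 counts and 1500 genes and were kept. Embryos contributed 13 to 22 of them, and the median kept cell held 1310080 counts. Eed itself separated the genotypes without overlap at every stage and sex. For example, E13.5 ECKO libraries had 3.18, 14.4 and 11.9 CPM and Controls 63.8 to 130. At E11.5 the ECKO libraries held 15.7 to 46.0 CPM of Eed in XY, against 76.4 to 135 in Controls. In E11.5 XX they held 11.9 to 26.6 CPM, against 74.2 to 84.6. CPM is a count scaled to its library's size, here with TMM factors. By the edgeR quasi-likelihood test, Eed passed the threshold used here in E11.5 XY (adjusted p = 0.0118) and E13.5 XY (0.0107). It missed that threshold in E11.5 XX (0.0567), E12.5 XX (0.353) and E12.5 XY (0.738). In those comparisons even the deleted gene was not called, although its groups did not overlap. Of 12 germ cell markers, 11 or 12 were detected in every library. Their summed level was 4487 to 5451 CPM in E13.5 XY Controls and 1882 to 3446 CPM in ECKO. E13.5 XY Control 3 had the lowest scaling factor (0.697) and the highest sum of supporting cell markers in bulk (310 CPM, against 20.9 to 99.2 in the other E13.5 libraries). In the bulk ECKO libraries numbered 4 at E11.5, the interstitial marker sum was 417 CPM in XY and 1159 CPM in XX, against 161 CPM or less in the other E11.5 libraries.

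The sequences upstream of 6 of the 10 genes were available from RefSeq (GRCm38.p6, a later build than the mm9 named in the submitters' processing notes). They are shown for the ligand, the co-receptor and both type II receptors, the members whose levels differed most between the E13.5 groups apart from Lefty2 and Foxh1. Each line holds the 250 bases before the annotated start, 5′ to 3′ on the gene's strand, with matches to the SMAD motif CAGAC or its reverse complement in capitals.
Nodal: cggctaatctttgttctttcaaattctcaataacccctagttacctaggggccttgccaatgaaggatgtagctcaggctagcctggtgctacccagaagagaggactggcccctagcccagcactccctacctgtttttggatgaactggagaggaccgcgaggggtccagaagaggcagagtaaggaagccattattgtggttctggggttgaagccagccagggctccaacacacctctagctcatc
Tdgf1: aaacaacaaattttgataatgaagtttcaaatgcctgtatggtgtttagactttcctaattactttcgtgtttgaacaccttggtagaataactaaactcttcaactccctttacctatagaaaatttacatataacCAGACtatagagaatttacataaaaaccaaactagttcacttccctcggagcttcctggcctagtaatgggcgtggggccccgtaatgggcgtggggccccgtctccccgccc
Acvr2a: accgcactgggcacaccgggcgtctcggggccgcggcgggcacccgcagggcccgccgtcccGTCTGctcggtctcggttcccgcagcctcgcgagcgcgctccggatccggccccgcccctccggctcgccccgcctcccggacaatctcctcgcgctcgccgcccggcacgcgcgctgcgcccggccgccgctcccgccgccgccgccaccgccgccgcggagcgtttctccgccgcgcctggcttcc
Acvr2b: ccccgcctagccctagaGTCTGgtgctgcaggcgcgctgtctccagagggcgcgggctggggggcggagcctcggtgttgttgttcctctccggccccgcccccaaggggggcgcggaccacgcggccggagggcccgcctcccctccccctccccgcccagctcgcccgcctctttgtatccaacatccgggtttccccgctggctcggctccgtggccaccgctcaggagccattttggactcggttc

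These bases lie at chr10:61417722-61417971 on the plus strand for Nodal, chr9:110946159-110946408 on the minus strand for Tdgf1, chr2:48813859-48814108 on the plus strand for Acvr2a and chr9:119401928-119402177 on the plus strand for Acvr2b. The motif CAGAC was searched on both strands and had 1 match each upstream of Tdgf1, Acvr2a and Acvr2b, where 42.2% of 32851 mouse promoters of the same length held it. None of the 6 windows held the FOXH1 motif TGTGNATT, which 3.18% of promoters did. A match of these letters is a description, and no match says only that they are not in this window. The windows differed in CpG content, a feature of promoters that Polycomb complexes are known to occupy. Nodal had 3 CpG and Tdgf1 7, close to the median of 6 over all promoters, whereas Acvr2a had 49, Acvr1b 42, Acvr2b 24 and Smad3 22.

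Of the 10 genes, 0 passed the test between ECKO and Control at E13.5 XY (edgeR quasi-likelihood test, adjusted p under 0.05), where 4.9% of 12336 genes did. Without adjustment 5 of the 10 had p under 0.05, where 22.7% of genes did, and DESeq2 called 1, Acvr2a, where it called 15.7% of genes. Of the 10 members, 7 had a negative log2 fold change, and the median was -0.96 against 0.05 over all genes tested. The groups of Lefty2, Tdgf1 and Acvr2a did not overlap, with every ECKO library below every Control, which makes 3 of 10 against 11.6% of all genes tested. In bulk RNA, fewer cells of a type and less RNA per cell cannot be told apart.

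**Figure D1:**
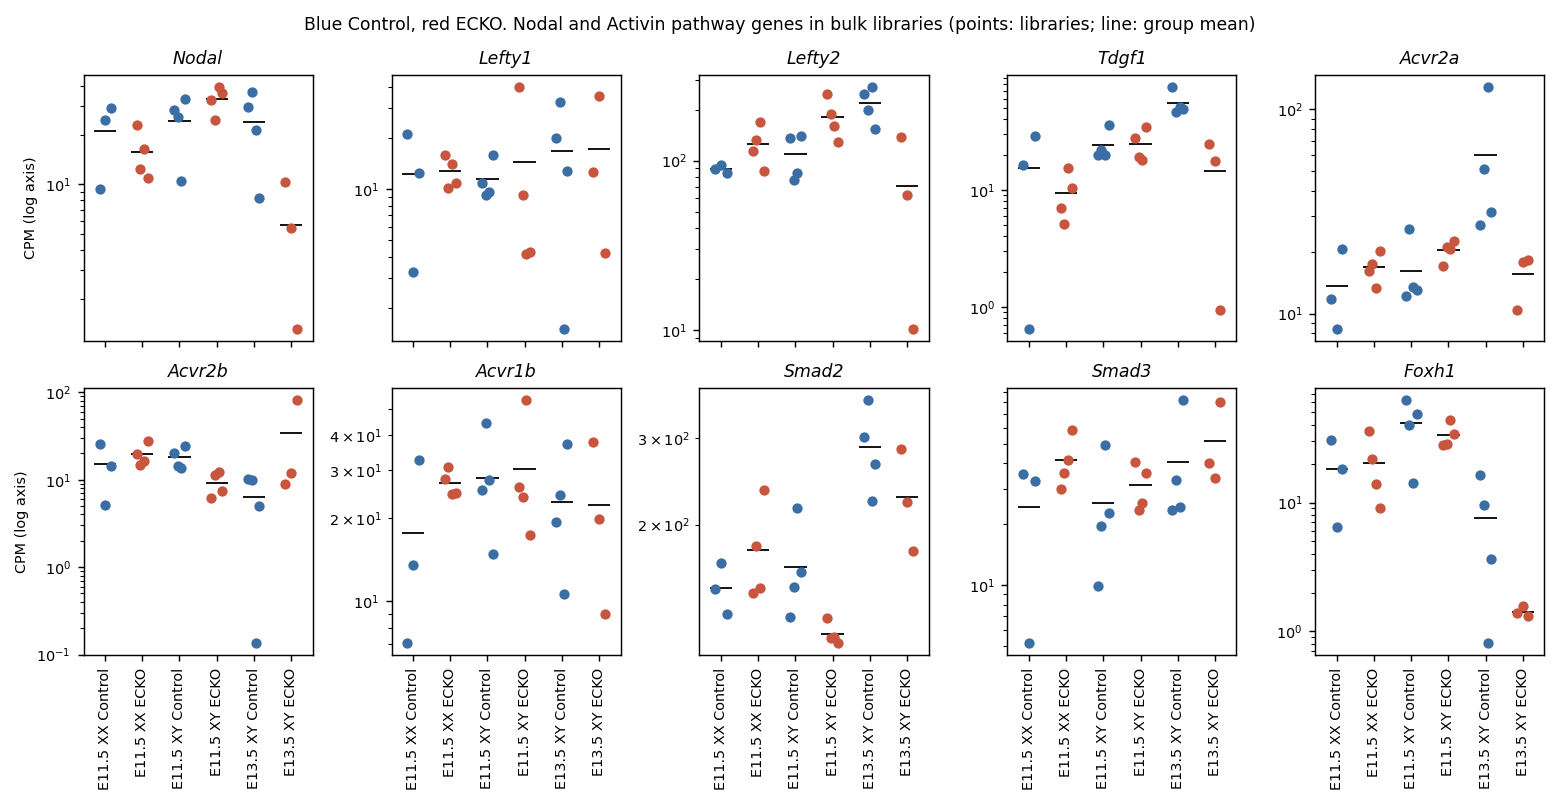
TMM-scaled CPM (log axis) of the 10 genes in the 22 bulk libraries, by stage, sex and genotype; each point is a library (blue Control, red ECKO) and the line is the group mean. The E13.5 XY ECKO libraries lie below all Controls for Lefty2, Tdgf1 and Acvr2a, and Foxh1 is lower in most E13.5 XY libraries than in the E11.5 XY libraries.

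For the ligand Nodal the E13.5 XY Controls had 29.6, 36.4, 21.6 and 8.23 CPM and the ECKO libraries 10.3, 5.39 and 1.31. Only Control 4 fell inside the ECKO range, so the groups overlapped. Its log2 fold change was -2.05 (SE 0.85, adjusted p = 0.177), and it was -2.90 without ECKO 1 (adjusted p = 0.0558). With other libraries left out it reached -1.57, and the adjusted p reached 0.384. Without ECKO 1 edgeR called 2141 of 13357 genes, against 604 of 12336 with it.

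Lefty2, a secreted inhibitor that blocks Nodal and its co-receptor, had 246, 199, 273 and 154 CPM in Controls and 138, 63.1 and 10.2 in ECKO. ECKO 1 lay just below the lowest Control and ECKO 3 far below it. The log2 fold change was -1.60 (SE 0.64, adjusted p = 0.163). Without ECKO 1 it was -2.64 (adjusted p = 0.0206), so that library decided the call. With other libraries left out it reached -1.08, and the adjusted p reached 0.346. Lefty1, the neighbouring and closely similar paralog, had 19.96, 32.7, 1.49 and 12.8 CPM in Controls and 12.6, 35.2 and 4.20 in ECKO, which overlapped throughout. How the counting split reads between these near-identical genes was not given in the sources used here, so the counts of each are uncertain.

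The co-receptor gene Tdgf1 had 76.1, 46.2, 50.6 and 49.1 CPM in Controls and 24.5, 17.6 and 0.934 in ECKO. The highest ECKO library was well below the lowest Control, and ECKO 3 rested on 10 counts. On the log2 scale ECKO differed by -1.93 (SE 0.79, adjusted p = 0.176), and -2.65 without ECKO 1 (adjusted p = 0.0753). With other libraries left out the difference reached -1.38, and the adjusted p reached 0.314.

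The type II receptor Acvr2a had 27.1, 50.8, 129 and 31.3 CPM in Controls and 10.4, 18.0 and 18.3 in ECKO. No ECKO library reached the lowest Control, and Control 3 was far above the rest. The log2 fold change of -1.95 (SE 0.61, adjusted p = 0.0853) was -1.16 without that library (adjusted p = 0.187).

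Acvr2b, the other type II receptor, had 10.1, 9.90, 0.136 and 5.03 CPM in Controls and 9.02, 11.8 and 80.7 in ECKO. Control 3, with 1 count, and ECKO 3 were the extremes, and the other libraries overlapped. Its log2 fold change of 2.39 (SE 1.06, adjusted p = 0.202) was 0.74 without ECKO 3 (adjusted p = 0.825).

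Foxh1, the DNA-binding partner of the SMADs, had 16.3, 9.62, 0.814 and 3.66 CPM in Controls and 1.40, 1.57 and 1.31 in ECKO. Control 3 was the lowest library of all, so the groups overlapped. The ECKO libraries held 11 to 14 counts each. The fitted log2 difference for Foxh1 was -2.40 (SE 1.20, adjusted p = 0.254). The other 4 members, Lefty1, Acvr1b, Smad2 and Smad3, had log2 fold changes between -0.32 and 0.31.

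ECKO 3 had the lowest germ cell marker sum of the E13.5 libraries (1882 CPM) as well as the lowest Nodal, Lefty2 and Tdgf1. The summed endothelial list (9 genes, among them Pecam1, which germ cells are also known to express) was 183 to 252 CPM in Controls and 25.7 to 87.4 in ECKO, with 3 to 7 genes detected per library. Supporting cell markers summed to 70.6 to 99.2 CPM in ECKO, with 10 to 14 of 15 detected, against 20.9, 28.0, 310 and 90.5 in Controls, with 6 to 14 detected. Interstitial markers summed to 152 to 231 CPM in Controls and 96.1 to 272 in ECKO, with Cyp11a1 and Insl3 at 0 in every E13.5 library. The part of these differences in the members' levels was not tested.

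A wider list of 38 other pathway genes gave 0 calls among the 28 tested at E13.5 XY (edgeR, adjusted p under 0.05), with a median log2 fold change of -0.22. The smallest adjusted p among them (0.0593) belonged to the mesoderm gene T, known as Brachyury, with 1099 counts in ECKO 1 and 1 to 21 in each of the other 6 libraries. Skil, a repressor of SMAD-driven transcription, followed with a fold change of -1.39 on the log2 scale (SE 0.40, adjusted p = 0.0623, and 0.00660 without ECKO 1). Tgif1, a further SMAD co-repressor, had 1.27 (SE 0.38, adjusted p = 0.0723, and 0.0242 without ECKO 1). Nanog, a pluripotency factor and known target of SMAD2/3, had -1.25 (SE 0.54, adjusted p = 0.197, and 0.0176 without ECKO 1). With other libraries left out, the adjusted p-values of Skil, Tgif1 and Nanog reached 0.209, 0.264 and 0.431. Nanos2, a gene of male germ cell fate outside the list, was low in Controls (0.224, 2.84, 0.136 and 0.685 CPM). In ECKO it had 2.16, 59.4 and 60.1 CPM, with ECKO 1 inside the Control range, and it rose by 5.30 on the log2 scale (SE 1.20, adjusted p = 0.0296). The call was lost without Control 1, Control 4, ECKO 2 or ECKO 3, with adjusted p-values of 0.0796, 0.0967, 0.110 and 0.111.

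At E11.5 in XY PGCs, 0 of the 10 genes passed the test by edgeR, where 2.13% of 12497 genes did. Without adjustment 3 of the 10 had p under 0.05, where 16.1% of genes did. DESeq2 called 1, Lefty2, and 7.45% of genes. Lefty2 had 136, 77.4, 85.1 and 140 CPM in Controls and 249, 189, 161 and 129 in ECKO. Only ECKO 4 fell within the Control range. The log2 fold change was 0.75 (SE 0.22, adjusted p = 0.0980 by edgeR and 0.0328 by DESeq2).

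Acvr2b and Smad2 were the 2 of 10 members whose ECKO libraries all lay below every E11.5 XY Control, where 4.99% of genes did. Acvr2b had 20.2, 14.4, 13.49 and 24.2 CPM in Controls and 6.10, 11.2, 12.3 and 7.49 in ECKO. Its log2 fold change was -0.94 (SE 0.42, adjusted p = 0.278). Smad2, a receptor-activated SMAD, had 130, 149, 216 and 160 CPM in Controls and 129, 118, 118 and 115 in ECKO, with the gap between ECKO 1 and Control 1 under 1 CPM. Its log2 fold change was -0.43 (SE 0.17, adjusted p = 0.213).

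Nodal overlapped between the E11.5 XY groups, with 28.5, 25.5, 10.47 and 32.9 CPM in Controls and 32.7, 24.5, 39.4 and 36.0 in ECKO. Tdgf1 ran from 19.7 to 35.8 CPM in Controls and from 17.9 to 34.1 in ECKO. The 7 members other than Lefty2, Acvr2b and Smad2 had log2 fold changes between -0.28 and 0.46.

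In E11.5 XX PGCs, 0 of the 10 genes passed by edgeR or by DESeq2, where 0.172% of 11058 genes passed by edgeR and 2.67% by DESeq2. None of the 10 had an unadjusted p under 0.05, against 13.9% of genes. Lefty2 had 89.2, 94.3 and 84.8 CPM in Controls and 113, 133, 169 and 87.4 in ECKO, with ECKO 4 inside the Control range. Its log2 fold change was 0.49 (SE 0.26, adjusted p = 0.425). Smad2 had 148, 167 and 132 CPM in Controls and 145, 181, 149 and 235 in ECKO. Its log2 fold change was 0.25 (SE 0.23, adjusted p = 0.690). The other 8 members lay between -0.70 and 0.81. These libraries were shallow: in Control 1 Nodal rested on 4 counts, and in Control 2 Tdgf1 rested on 1. The deleted gene Eed also missed the threshold in E11.5 XX by edgeR (adjusted p = 0.0567).

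Whether the ECKO difference itself differed between the sexes at E11.5 was tested with an interaction term. By edgeR 0 of the 10 members passed, where 0% of 14185 genes did, although 1 member, Smad2, and 5.27% of genes had an unadjusted p under 0.05. DESeq2 called 0 members and 0.00545% of genes. For Smad2 the difference of the log2 fold changes, XY minus XX, was -0.70 (SE 0.28, adjusted p = 0.900).

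**Figure D2:**
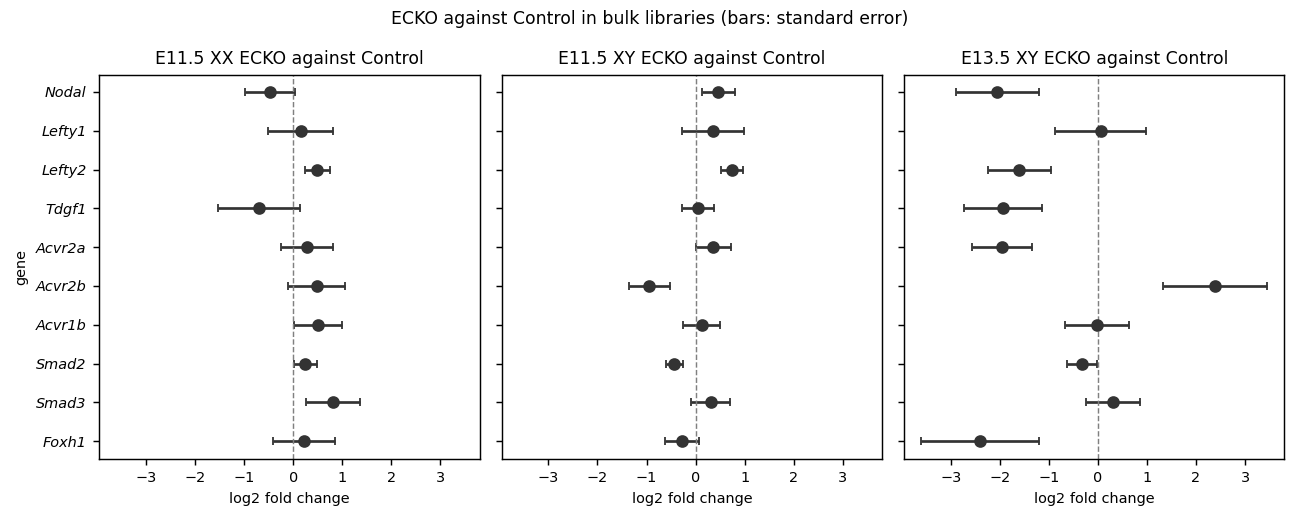
Log2 fold change of ECKO against Control (x axis, bars are 1 standard error) for each of the 10 genes in E11.5 XX, E11.5 XY and E13.5 XY bulk libraries; the dashed line marks no change. At E11.5 all 10 values lie within 1 log2 unit of 0 in both sexes, and at E13.5 XY 5 genes lie at or below -1.60 and Acvr2b lies at 2.39, none past the test.

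Between E11.5 and E13.5, 3 of the 10 genes passed the test in XY Controls, where 31.5% of 14447 genes did. Foxh1 went from 61.9, 40.1, 14.2 and 48.5 CPM at E11.5 to 16.3, 9.62, 0.814 and 3.66 at E13.5, and it fell by 2.51 on the log2 scale (SE 0.64, adjusted p = 0.00491). The stages overlapped only through E11.5 Control 3 and E13.5 Control 1. Without E13.5 Control 1 Foxh1 fell by 3.20 (adjusted p = 0.00179).

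Acvr2a rose by 1.78 (SE 0.48, adjusted p = 0.00724) from 12.2, 26.1, 13.6 and 13.1 CPM at E11.5, all below the lowest E13.5 Control. Without E13.5 Control 3 the log2 difference was 1.07 (adjusted p = 0.0564), so the call rested on that library. Smad2 rose by 0.71 (SE 0.22, adjusted p = 0.0191), from 130 to 216 CPM at E11.5 to 223 to 358 CPM at E13.5, with no overlap. Leaving out E11.5 Control 1, E11.5 Control 2 or E13.5 Control 2 gave adjusted p-values for Smad2 of 0.0692, 0.0533 and 0.0653.

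Lefty2 and Tdgf1 did not overlap between the Control stages and were higher at E13.5. With Acvr2a and Smad2 they made 4 members higher without overlap, where 2612 of 14447 genes were. The log2 differences were 0.90 for Lefty2 (SE 0.45, adjusted p = 0.136) and 1.10 for Tdgf1 (SE 0.57, adjusted p = 0.149), neither past the test. Without E13.5 ECKO 3, which shares the estimate of spread, the adjusted p-values were 0.0215 for Lefty2 and 0.0280 for Tdgf1. Acvr2b was lower at E13.5 without overlap, where 2725 of 14447 genes were, and had a log2 difference of -1.61 (SE 0.80, adjusted p = 0.131). Stage lies in separate tables, so stage and any preparation batch cannot be told apart.

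In XY ECKO PGCs 4 of the 10 genes passed between the stages, where 23.7% of genes did. Foxh1 fell by 4.64 (SE 0.81, adjusted p = 0.000349), from 27.9, 28.4, 43.7 and 34.1 CPM to 1.40, 1.57 and 1.31. Nodal fell by 2.65 (SE 0.66, adjusted p = 0.00590), from 24.5 to 39.4 CPM to 1.31 to 10.3 CPM, with no overlap. It fell by 3.40 without E13.5 ECKO 1 (adjusted p = 0.00241). Foxh1 and Nodal were the 2 of 10 members lower at E13.5 without overlap, where 2525 of 14447 genes were.

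Smad2 rose by 0.83 (SE 0.24, adjusted p = 0.0153), from 115 to 129 CPM to 177 to 285 CPM, and missed the threshold without E13.5 ECKO 1 (adjusted p = 0.0617). Lefty2 fell by 1.46 (SE 0.50, adjusted p = 0.0391), with E13.5 ECKO 1 inside the E11.5 range. The Lefty2 call was lost when any of 8 libraries was left out, with an adjusted p of up to 0.127. Those were E11.5 Control 2, E11.5 ECKO 1, 2 and 3, E13.5 Controls 2 and 4, and E13.5 ECKO 2 and 3.

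Of the wider pathway list, 32 genes were tested between the stages. In Controls 8 rose and 3 fell, and in ECKO 5 rose and 6 fell, 11 of 32 in each, where 31.5% and 23.7% of all genes tested passed. In Controls the smallest adjusted p-values belonged to Tgif1, which rose by 2.84 (SE 0.41, adjusted p = 2.71e-05), and to Smurf2, a ubiquitin ligase that targets SMADs and receptors, which rose by 1.53 (SE 0.27, adjusted p = 0.000209). Otx2, an anterior and pluripotency-exit transcription factor, rose by 4.08 (SE 0.76, adjusted p = 0.000361). Smad7, the inhibitory SMAD, fell by 1.60 (SE 0.32, adjusted p = 0.000753). Drap1, a co-repressor known to limit Foxh1, fell by 1.99 (SE 0.41, adjusted p = 0.000914), and Trim33, a SMAD4 regulator, rose by 1.30 (SE 0.28, adjusted p = 0.00120).

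In ECKO Tgif1 rose by 2.41, Otx2 by 4.51 and Smurf2 by 1.29 between the stages. Nanog fell by 2.15, Smad7 by 1.78 and Drap1 by 2.13. Their adjusted p-values ran from 0.000316 to 0.00235.

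Whether the change between stages differed with genotype was tested by the interaction of stage and genotype. By edgeR 0 of the 10 members passed, where 1.2% of 14447 genes did, and 6 had an unadjusted p under 0.05, where 17.6% of genes did. DESeq2 called 4, namely Nodal, Lefty2, Acvr2a and Acvr2b, where it called 6.25% of genes. The difference of log2 fold changes, E13.5 minus E11.5, was -2.36 for Lefty2 (SE 0.68, adjusted p = 0.0836 by edgeR and 0.0360 by DESeq2). It was -2.27 for Acvr2a (SE 0.70, adjusted p = 0.101 by edgeR and 0.0271 by DESeq2). Nodal had -2.54 (SE 0.84, adjusted p = 0.121 by edgeR and 0.0382 by DESeq2) and Acvr2b 3.37 (SE 1.15, adjusted p = 0.136 by edgeR and 0.0359 by DESeq2). Without E13.5 ECKO 1 edgeR also called 3 of them, Lefty2 (adjusted p = 0.00212), Nodal (0.0184) and Acvr2b (0.0354). That fit called 1267 of 15296 genes. With any other library left out, edgeR called no member.

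In single E12.5 PGCs, Nodal and both Lefty genes were present in a larger share of cells in every XY embryo than in any XX embryo. These levels come from another library preparation, scaled over the 8 embryos, and are not set against the bulk levels. Counting a gene as present at 10 CPM or more, Lefty1 was present in 12 of 13 and 21 of 22 cells of the XY Control embryos. The XY ECKO embryos had it in 18 of 18 and 15 of 18 cells. It was present in 0 of 14, 0 of 16, 0 of 13 and 0 of 13 XX cells, which allows shares of up to 21.4%, 18.8%, 23.1% and 23.1% by the floor of 3 cells, and of 23.2%, 20.6%, 24.7% and 24.7% by the exact Clopper-Pearson 95% interval. Lefty2 was present in all 71 XY cells, 13, 22, 18 and 18 by embryo. In XX it was present in 0 of 14 and 1 of 16 Control cells and in 2 of 13 and 0 of 13 ECKO cells. Such intervals and limits cover counting error within an embryo, and since the reads carry no molecular identifiers they do not count separate molecules.

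Nodal was present in 13 of 13 and 16 of 22 XY Control cells. The XY ECKO counts were 15 of 18 and 13 of 18. In XX it was present in 1 of 14 and 4 of 16 Control cells and in 1 of 13 and 1 of 13 ECKO cells. The exact Clopper-Pearson 95% intervals of the XY embryos started at 46.5% or more, and those of XX ended at 52.4% or less, so they overlapped at their ends. After thinning each cell to 50000 counts and scoring any count, Nodal was present in 72.2% to 92.3% of XY cells and in 0% to 18.8% of XX cells by embryo.

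**Figure D3:**
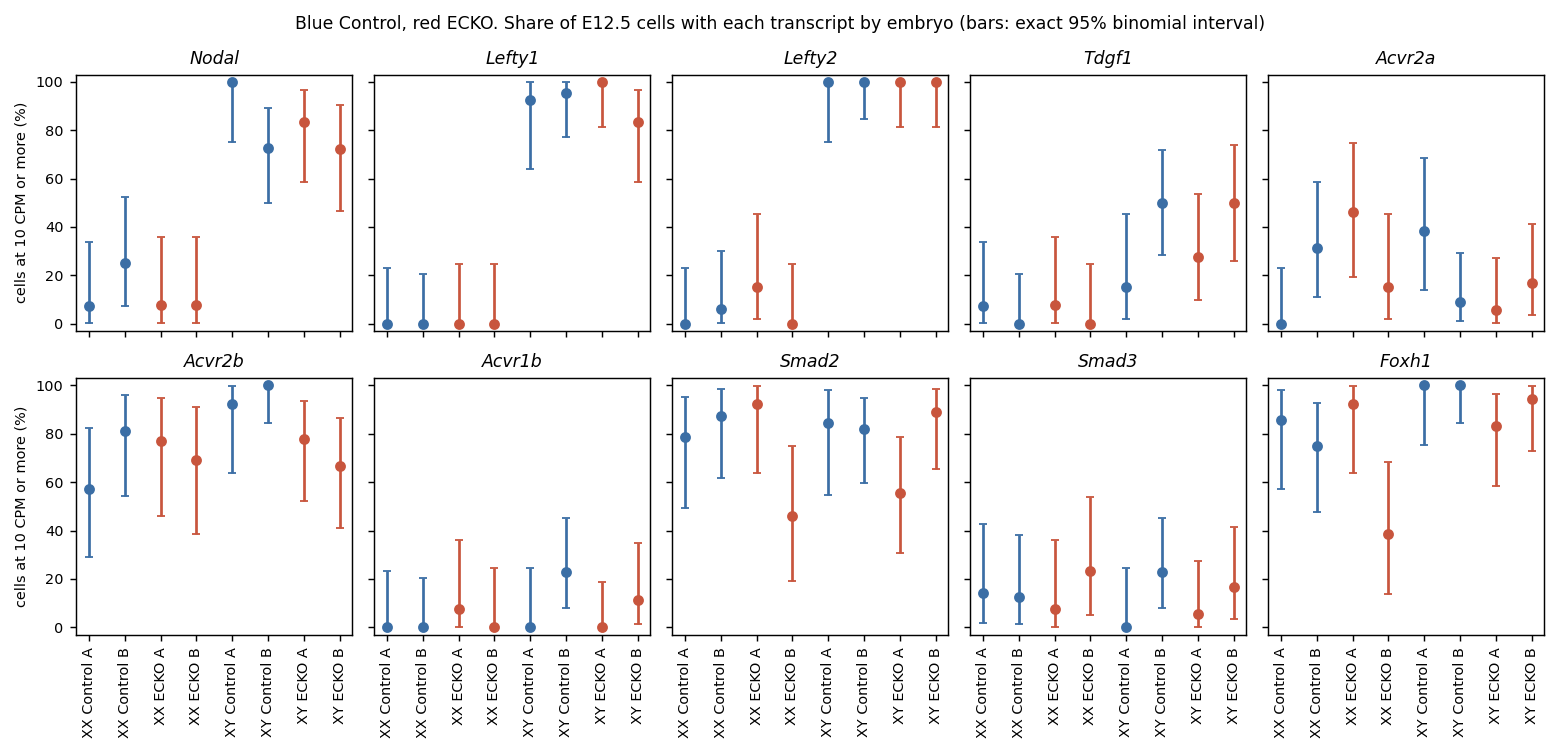
Percent of E12.5 cells with each of the 10 transcripts at 10 CPM or more, by embryo (blue Control, red ECKO); bars are exact 95% binomial intervals over the cells of 1 embryo. Lefty2 is at 100% in all 4 XY embryos and at 15.4% or less in all 4 XX embryos, and Foxh1 is lowest in XX ECKO embryo B at 38.5%.

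Nodal, Lefty1 and Lefty2 were present together in 12 of 13 and 15 of 22 XY Control cells. In XY ECKO this held for 15 of 18 and 12 of 18 cells, and in each XX embryo for 0. Since Lefty2 was present in every kept XY cell, the XY counts follow from Nodal and Lefty1 alone. The median number of the 10 members present per cell was 6 and 7 in XY Control, 5 and 6 in XY ECKO, 3 and 3 in XX Control, and 3 and 2 in XX ECKO. Median counts per cell were 990910 to 1121570 in XY embryos and 1422490 to 1998460 in XX embryos. Median genes detected per cell were 7213 and 7328.5 in XY Control and 6002.5 and 6824.5 in XX Control. In ECKO they were 7468 and 6796 in XY and 8011 and 6696 in XX. The part of depth and of genes detected in the numbers of members present was not tested.

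Tdgf1 was present in 2 of 13 and 11 of 22 XY Control cells, against 5 of 18 and 9 of 18 for XY ECKO. In XX it was present in 1 of 14, 0 of 16, 1 of 13 and 0 of 13 cells. Acvr2b was common in both sexes, at 8 of 14 and 13 of 16 XX Control cells, 10 of 13 and 9 of 13 XX ECKO cells, 12 of 13 and 22 of 22 XY Control cells, and 14 of 18 and 12 of 18 XY ECKO cells. Acvr1b was present in at most 5 of 22 cells and Smad3 in at most 5 of 22 cells or 3 of 13. Acvr2a was present in 0% to 46.2% of cells by embryo and Smad2 in 46.2% to 92.3%.

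Foxh1 was present in all 35 XY Control cells, 13 and 22 by embryo. XY ECKO embryos had it in 15 of 18 and 17 of 18 cells. In XX it was present in 12 of 14 and 12 of 16 Control cells, and in 12 of 13 and 5 of 13 ECKO cells. The low share belonged to 1 of the 2 XX ECKO embryos.

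**Figure D4:**
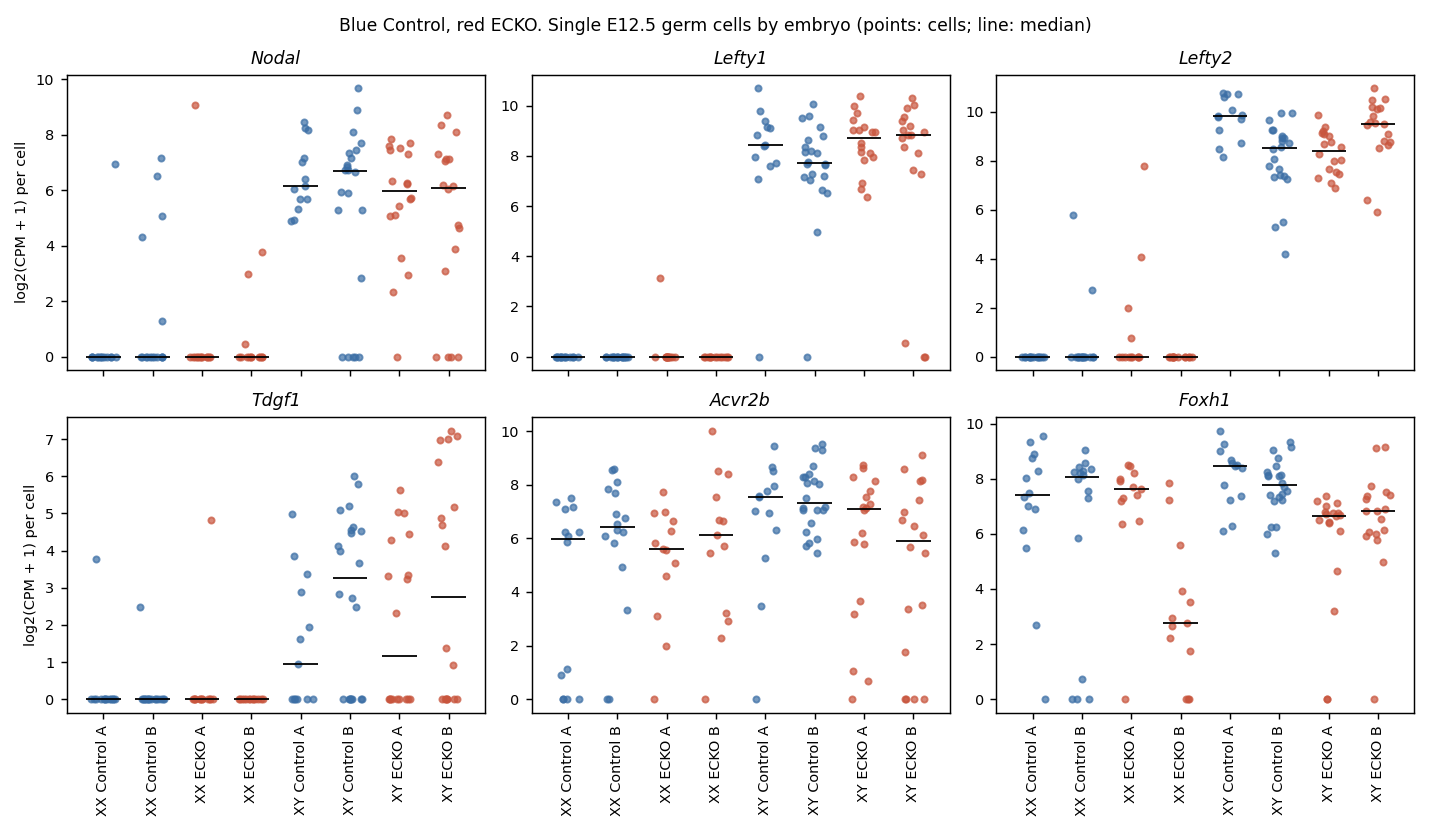
Level of 6 genes per E12.5 cell, as log2 of CPM plus 1, by embryo; each point is a cell (blue Control, red ECKO) and the line is the embryo's median. The XX medians of Nodal, Lefty1, Lefty2 and Tdgf1 are at 0, and 1 cell of XX ECKO embryo A stands apart for Nodal at 534 CPM.

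Cells of 1 embryo are not replicates, so conditions were compared on counts summed per embryo. The counts of XX and XY cells were deposited apart, so sex and any preparation batch that follows it cannot be told apart. In Controls, 7 of the 10 members were higher in both XY embryos than in both XX embryos, where 16.4% of 13956 genes were. The 7 were Nodal, Lefty1, Lefty2, Tdgf1, Acvr2b, Acvr1b and Foxh1. By edgeR 1 of the 10, Lefty1, passed between XY and XX Controls, where 0.043% of genes did.

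Lefty1 had 562 and 321 CPM in the XY Controls and no counts in either XX Control (adjusted p = 0.0257). Against a floor of 3 counts over the 2 XX embryos, its pooled level in XY was 7278-fold higher. That floor counts reads, and 1 cell can bring more of them. In XX ECKO embryo A, for instance, 1 cell held 28 Lefty1 counts. The ratio is therefore not a strict lower limit. Acvr1b also had no counts in XX Controls, and 0.812 and 6.09 CPM in XY (adjusted p = 0.853 by edgeR). These low XY levels rested on 11 counts from 1 cell in embryo A and on 123 counts in embryo B. Pooled over both embryos they were 69.2-fold above the same floor of reads, which is no strict lower limit either.

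Lefty2 had 1163 and 404 CPM in XY Controls against 0 and 6.84 in XX, a log2 difference of 7.84 (SE 2.35, adjusted p = 0.760). With 1 embryo left out, the log2 difference of Lefty2 ran from 6.84 to 17.1. Nodal had 115 and 147 CPM against 12.2 and 12.53, a log2 difference of 3.41 (SE 1.14, adjusted p = 0.783). With 1 embryo left out, the log2 difference of Nodal ran from 3.21 to 3.54. Whether Lefty2 and Nodal passed turned on single embryos that share the estimate of spread.

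Tdgf1 had 5.61 and 19.4 CPM in XY Controls against 1.43 and 0.331 in XX, a log2 difference of 3.82 (SE 1.80, adjusted p = 0.870). Acvr2b had 238 and 265 CPM against 60.5 and 143, a log2 difference of 1.31 (SE 0.56, adjusted p = 0.863). Foxh1 had 377 and 311 CPM against 248 and 239. Neither sex overlapped the other for these genes, and none of the 3 passed.

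In the ECKO embryos 4 of the 10 members, Nodal, Lefty1, Lefty2 and Tdgf1, were higher in both XY than in both XX embryos, where 18.2% of genes were. By edgeR 0 members passed, where 0% of 13956 genes did, although 3 members and 6.38% of genes had an unadjusted p under 0.05. DESeq2 called 1 member, Lefty1, and 2.58% of genes. Lefty1 had 476 and 373 CPM in XY ECKO against 1.05 and 0 in XX ECKO, a log2 difference of 9.53 (SE 1.19, adjusted p = 0.0972 by edgeR and 0.000188 by DESeq2). With any 1 of the 8 embryos left out, the log2 difference of Lefty1 ran from 8.66 to 16.2. Each such fit leaves 1 embryo in a group, so its p-value is not given. Lefty2 had 420 and 877 CPM against 30.0 and 0, a log2 difference of 5.42 (SE 2.10, adjusted p = 0.759). Tdgf1 had 14.7 and 39.3 against 2.20 and 0, a log2 difference of 4.59 (SE 1.87, adjusted p = 0.759). This contrast was added after the values were seen.

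Nodal in ECKO had 94.4 and 90.3 CPM in XY against 71.3 and 1.86 in XX, a log2 difference of 1.33 (SE 1.05, adjusted p = 0.838). All 1907 Nodal counts of XX ECKO embryo A came from 1 cell, the cell numbered 24, as did its 28 Lefty1 counts and 776 of its 804 Lefty2 counts. That cell held 3571435 counts and none of 4 Y-linked genes (Ddx3y, Eif2s3y, Kdm5d, Uty). It also held no Xist counts, where the other 12 kept cells of the embryo held 10 together. Eed had 86 counts in it (24.1 CPM), against 13.7 CPM over the other 12 cells. An XX cell of number 24 is titled ECKO but has a genotype label of wild type, and which embryo it belongs to is not tied to a column. The cell numbered 24 of embryo B held 1235 counts and was not kept. Without the cell, embryo A had Nodal at 0 and Lefty2 at 1.33 CPM. With 1 embryo left out, the log2 difference of Nodal between XY and XX ECKO ran from 0.37 to 5.62.

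Between ECKO and Control XX embryos at E12.5, 0 of the 10 genes passed by edgeR, where 0.0215% of 13956 genes did. An unadjusted p under 0.05 was seen for 2 members, Lefty1 and Acvr1b, and 12.3% of genes. The value of Lefty1 rested on 28 counts of 1 cell, the cell numbered 24 of ECKO embryo A. Without that cell no XX embryo held a Lefty1 count, and the gene was high only in the XY embryos of the same fit. DESeq2 called 1 member, Acvr1b (adjusted p = 0.0456), and 8.58% of genes. Acvr1b had no counts in the XX Controls, 96.6% of its counts in ECKO embryo A came from 1 cell, and embryo B held 3 counts. Foxh1 had 184 and 60.4 CPM in ECKO against 248 and 239 in Controls, and its log2 fold change was -0.99 (SE 0.52, adjusted p = 0.460). It was the 1 member lower in both ECKO embryos, where 2500 of 13956 genes were. Acvr1b was the 1 member higher in both, where 3253 genes were. The log2 fold change of Nodal was 1.57 (SE 1.06, adjusted p = 0.558) and that of Lefty2 was 2.15 (SE 1.84, adjusted p = 0.665). Both turned negative without the cell numbered 24, at -3.76 for Nodal (adjusted p = 0.255) and -2.37 for Lefty2 (adjusted p = 0.564). The germ cell marker sum was 6300 and 6515 CPM in XX Controls and 2828 and 2406 in ECKO. Of 15 supporting cell markers, 10 and 11 were detected in XX ECKO and 3 and 2 in Controls, summing to 42.0 and 161 CPM against 30.9 and 14.04. Interstitial markers summed to 281.26 CPM in XX ECKO B, the embryo with the lowest Foxh1, and to 3.36 to 13.3 CPM in the other XX embryos. Endothelial markers summed to 29.2 and 30.0 CPM in XX ECKO against 167 and 90.7 in Controls. The part of these differences in the members' levels was not tested.

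Between ECKO and Control XY embryos at E12.5, 0 of the 10 genes passed by edgeR, where 0.00717% of genes did. Without adjustment 1 member, Foxh1, had p under 0.05, where 6.31% of genes did. DESeq2 called 0 members and 3.08% of genes. Nodal, Acvr2b and Foxh1 were lower in both ECKO embryos than in both Controls, 3 of 10 members against 16% of genes. Foxh1 had 99.3 and 132 CPM against 377 and 311 in Controls, and its log2 fold change was -1.57 (SE 0.53, adjusted p = 0.719). Acvr2b had 97.1 and 171 against 238 and 265, and its log2 fold change was -0.91 (SE 0.55, adjusted p = 0.781). For Nodal it was -0.51 (SE 1.04, adjusted p = 0.980). Lefty1 and Lefty2 overlapped between the genotypes. The germ cell marker sum was 7464 and 8572 CPM in XY Controls and 7344 and 5070 in ECKO. Endothelial markers summed to 111 and 67.3 CPM in XY Controls and 22.1 and 30.3 in ECKO. Of 15 supporting cell markers, 4 and 1 were detected in XY Controls and 6 and 7 in ECKO, summing to 61.1 and 30.6 CPM against 40.8 and 8.13. The part of these differences in the members' levels was not tested.

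The interaction of sex and genotype at E12.5 had 0 of 10 members past the test by edgeR, where 0% of 13956 genes were, with 2 members and 4.88% of genes at an unadjusted p under 0.05. DESeq2 called 0 members and 1.45% of genes. With 2 embryos a group, a missed threshold does not show that the sexes responded alike. Of 31 pathway list genes tested at E12.5, 0 passed between the genotypes in either sex by edgeR. Nor did the deleted gene Eed (adjusted p = 0.353 in XX and 0.738 in XY). A missed threshold at E12.5 therefore does not show an unchanged level.

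The mean levels of each gene ordered the bulk groups differently. Nodal was lowest in E13.5 XY ECKO (5.66 ± 4.50 CPM, SD, n = 3) and highest in E11.5 XY ECKO (33.1 ± 6.37, n = 4), with the other 4 groups between 15.7 and 24.4 and not apart beyond their spread. Lefty2 was lowest in E13.5 XY ECKO (70.6 ± 64.4, n = 3), then E11.5 XX Control (89.4 ± 4.77, n = 3), E11.5 XY Control (110 ± 32.9, n = 4), E11.5 XX ECKO (126 ± 34.5, n = 4), E11.5 XY ECKO (182 ± 51.0, n = 4) and E13.5 XY Control (218 ± 52.3, n = 4), and every group overlapped its neighbour within 1 SD. Tdgf1 was highest in E13.5 XY Control (55.5 ± 13.9, n = 4), with the other 5 groups between 9.44 and 24.8. Lefty1 had group means of 11.4 to 17.3 CPM, and the ranges of all 6 groups overlapped.

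Across the 22 bulk libraries, the genes whose log2(CPM + 1) was most like that of Nodal, among 10436 with a mean of at least 5 CPM, were Mphosph6 (Pearson r 0.83) and the germ cell receptor Kit (0.82). For Lefty2 they were L1td1 (0.88) and Kit (0.86), and for Tdgf1 Coil (0.89) and Nhsl1 (0.88). For Lefty1 the nearest was Sart1 (0.80). Nodal and Lefty2 had an r of 0.74 with each other and Nodal and Lefty1 one of 0.02. These values describe 22 libraries of 6 groups that share depth and germ cell content, and carry no test.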

How the data were processed

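The deposited counts are whole numbers, in 1 row per gene symbol and 1 column per bulk library or cell. Ovation RNA-seq System V2 amplification was used for bulk RNA and Smart-seq2 for single cells, per the labels' protocols. The submitters' processing notes name HISAT2, edgeR and mm9. How reads were counted, with which annotation and strand setting, is not given in the sources used here. The 8 bisulfite samples were not used here.

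Each bulk table was analysed on its own with edgeR 4.0.16 (R 4.3.3): filterByExpr, TMM factors, then the quasi-likelihood test, with Benjamini-Hochberg adjustment over all genes tested and a threshold of 0.05. Stage contrasts used the 15 XY libraries, and E12.5 contrasts used counts of kept cells summed per embryo, all 8 embryos in 1 fit. Bulk CPM used TMM over the 22 libraries. Replicate numbers were not taken as pairs in the main fits. After removal of group means, same-numbered Control and ECKO libraries correlated between -0.146 and 0.168. The same number was the best match only for E11.5 XX numbers 1 (r 0.0524) and 3 (r 0.168). So few libraries cannot show whether a number marks related samples. No 2 replicates were the same library (chi-square per degree of freedom of at least 4.49). Fits were tested on simulated data. Alternatives were DESeq2 1.42.0, RLE scaling, no filter, the replicate block, other cell filters, thinning and each replicate left out, also run for other genes whose fold change is printed. The 10 members and Eed were tested in every comparison of the main fits, and members not taken up singly are given by a range or not at all. Of the pathway list, up to 6 genes of smallest adjusted p among those called were named. Nanos2, Skil, T, Tgif1 and Nanog at E13.5 were chosen after their values were seen. The result of 1 pathway list gene at E12.5 is not reported here. Members and lists were chosen with earlier results of these data known. Shares used exact Clopper-Pearson 95% intervals, and a floor is 3 counts.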

Additional observations from a re-analysis of the deposited data

Results flagged for a closer look

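Of the 40 combinations of a member and a bulk group of 4 libraries, 5 had 1 library far from the other 3, and chance flags about 1 in 20. Lefty1 was 40.2 CPM in E11.5 XY ECKO 1, against 4.16 to 9.24 in the other ECKO libraries. Tdgf1 was 35.8 CPM in E11.5 XY Control 4, against 19.7 to 21.9, and 76.1 CPM in E13.5 XY Control 1, against 46.2 to 50.6. Acvr2a was 26.1 CPM in E11.5 XY Control 2, against 12.2 to 13.6. Smad3 was 81.8 CPM in E13.5 XY Control 4, against 23.4 to 33.0.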

How the results depend on the processing

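Of 42 member fold changes taken up singly in the text and 16 of other genes, 4 alternative values turned direction, all in E12.5 XX ECKO against Control. Without cells numbered 24 Nodal was -3.76 and Lefty2 -2.37, and with 1 embryo left out Nodal ran from -2.72 to 2.52 and Lefty2 from -9.24 to 11.39, negative only without ECKO embryo A. Of the other 78 combinations of a member and a comparison, given by a range or not at all, 45 turned direction at least once, for example Tdgf1 in E11.5 XX from -0.70 to 0.36 without Control 3 and Smad3 at E13.5 XY from 0.31 to -0.13 without ECKO 3. The alternatives for the other genes were added after seeing the data. Counts of members called moved as follows, and the cause was not tested. In place of 0, DESeq2 called 1 in E11.5 XY, 1 in E13.5 XY, 1 in E12.5 XX, 4 in the stage interaction and 1 in the ECKO sex contrast, and 2 in place of 1 in the Control sex contrast (2.74% of genes). With RLE scaling the ECKO stage contrast had 3 in place of 4, since Lefty2 missed the threshold (adjusted p = 0.0511). With no low-count filter the counts, with the share of all genes called, were 1 in E11.5 XY (2.53%), 2 in E13.5 XY (7.06%), 2 in E12.5 XX (3.41%), 1 in the stage interaction (1.59%), 1 in the E12.5 sex interaction (0.506%), 3 in the Control sex contrast (0.879%) and 2 in the ECKO sex contrast (0.765%). Fitting all 22 bulk libraries together called 5 at E13.5 XY (Nodal, Lefty2, Acvr2a, Acvr2b and Foxh1), where it called 19.8% of all genes. Thinned cells gave 2 in the Control and 2 in the ECKO sex contrast, and leaving out the cells numbered 24 gave 1 in the ECKO sex contrast. With 1 bulk library left out, the counts ran from 0 to 1 at E13.5 XY, where 94 to 2141 of all genes were called. They ran from 2 to 5 in the Control stage contrast (3644 to 5333 genes) and 3 to 5 in the ECKO stage contrast (2736 to 4248). In the stage interaction they ran from 0 to 3 (30 to 1267 genes). At E12.5 each such fit left 1 embryo in a group, which was assumed to vary like the others, so those counts are not given. The replicate block gave 0 members in each bulk ECKO comparison and interaction, 3 in the Control and 4 in the ECKO stage contrast, and changed no count of members; replicates share only a number. Over all genes, the block called 68 at E13.5 XY against 604. No block was fitted at E12.5: the embryo numbers of the titles are not tied to columns, and the column names share only 1 number between the groups compared. Nanos2 at E13.5 XY missed the threshold with the block (adjusted p = 0.105). Depth limits E11.5 XX most: its shallowest Control held 415291 counts.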
